A study of Homo sapiens with 8 samples.

Results

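Small Cajal body RNAs were followed across 8 arrays of 2 human cell lines of T-ALL, an acute leukaemia of T cell precursors. Members were the genes whose symbol in the array's annotation starts with SNORA, SNORD or SCARNA and a number. This rule gave 23 of 14884 named genes, all of them SCARNA genes and 0 with a SNORA or SNORD symbol, so the values below concern small Cajal body RNAs and say nothing of box C/D or box H/ACA RNAs of the nucleolus. Each of the 23 had 1 probe set. CCRF-CEM and HPB-ALL, both established lines, each gave 1 array of cells transduced with a scramble short hairpin RNA (shRNA), 1 with the hairpin shTOX-1, 1 with shTOX-2 and 1 of untransduced cells. The hairpins are directed against TOX, which encodes a nuclear HMG-box protein needed in thymic T cell development. Transduced cells were spinoculated, selected with puromycin and kept for at least a fortnight before RNA was taken; the protocol text is the same for all samples, and only the titles mark the others as untransduced. The shTOX numbers name hairpins, and nothing in the sources says whether arrays came from separate cultures, so the p-values reflect how far these 8 arrays scatter, which may be technical in part.

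Small Cajal body RNAs are guide RNAs. They pair with the small nuclear RNAs of the spliceosome in the Cajal body, a nuclear compartment, and direct ribose methylation by fibrillarin (box C/D type) or pseudouridylation by dyskerin (box H/ACA type) at the paired position; composite members carry both kinds of domain. Most are cut from introns of a host gene, whereas a few, such as SCARNA2 and SCARNA17, have promoters of their own. By positions in the RefSeq gene table, 22 of the 23 lay inside the span of another gene, and SCARNA2 was the 1 that did not. Probe sequences were not used here, and signal from the mature RNA and signal from the surrounding intron or a precursor cannot be told apart.

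Sequences are shown where a RefSeq table used here overlaps a member: SCARNA16, which differed between the lines, and, to compare with it, SCARNA3, which was too dim to be tested. The hairpin of MIR6516 (GRCh38.p14, chr17:77089417-77089497, plus strand) holds the 3′ end of SCARNA16, and that of MIR1843 (chr1:175968370-175968479, minus strand) the 3′ end of SCARNA3; they share 77 and 83 bases with the member. Capitals mark the ACA triplet that gives the box H/ACA class its name, which in both lies 3 bases before the member's RefSeq end if the member is read on the hairpin's strand; the table used for the members' positions gives no strand. The hairpins themselves were not measured under their symbols.
MIR6516, end of SCARNA16: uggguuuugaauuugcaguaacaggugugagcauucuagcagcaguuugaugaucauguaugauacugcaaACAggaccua
MIR1843, end of SCARNA3: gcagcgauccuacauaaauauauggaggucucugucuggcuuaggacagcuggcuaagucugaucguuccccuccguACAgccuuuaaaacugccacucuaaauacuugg

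A pair of promoters is shown because they belong to genes that hold SCARNA17, SCARNA5 and SCARNA6, on which results below turn. SCARNA17 starts at the same base as SNHG22, a long noncoding RNA gene, so the SNHG22 window (chr18:49813773-49814072, plus strand, 250 bases before the start and 50 from it on) would also be that of SCARNA17 if SCARNA17 lies on the plus strand, which was not established here. SCARNA5 and SCARNA6 both lie within ATG16L1, which encodes a protein of autophagosome formation, and of its promoter the 250 bases before the start are shown (chr2:233251423-233251672, plus strand). Capitals mark matches to GGGCGG, the GC box, and CCAAT on either strand; TATAAA and the E-box CACGTG were searched as well and had 0 matches in both.
SNHG22: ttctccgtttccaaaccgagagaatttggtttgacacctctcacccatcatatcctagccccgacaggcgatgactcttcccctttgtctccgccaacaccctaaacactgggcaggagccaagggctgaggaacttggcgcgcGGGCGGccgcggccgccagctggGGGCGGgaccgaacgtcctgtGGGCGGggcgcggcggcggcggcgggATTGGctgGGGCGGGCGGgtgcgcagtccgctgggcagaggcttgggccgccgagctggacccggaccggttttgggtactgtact
ATG16L1: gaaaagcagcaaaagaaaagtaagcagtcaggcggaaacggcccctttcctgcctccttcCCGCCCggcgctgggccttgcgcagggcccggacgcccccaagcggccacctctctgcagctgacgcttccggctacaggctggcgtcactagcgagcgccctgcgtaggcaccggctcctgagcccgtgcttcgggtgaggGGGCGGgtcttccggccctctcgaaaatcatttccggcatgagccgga
The SNHG22 window had 5 GC box matches, of which the last pair overlaps, and 1 CCAAT match; the ATG16L1 window had 2 GC box matches and 0 CCAAT matches. A GC box match is found in 45% of the 35116 RefSeq promoter windows of 300 bases and in 42.6% of those of 250 bases, and a CCAAT match in 34.6% and 32.0%. For TATAAA the shares are 11.5% and 10.7%, and for the E-box 7.26% and 6.34%. These matches describe letters and not binding.

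Values are log2 intensities as deposited. Array medians over all probe sets lay between 4.62 and 4.71, so a shift common to all genes would not be seen, and no member's level is set against another's, since probes differ in brightness. In bulk RNA, fewer cells with an RNA and less RNA per cell cannot be told apart. TOX itself, the target, lay at 11.03 in both CCRF-CEM control arrays against 10.65 and 9.86 with the hairpins, and at 10.59 and 10.64 in HPB-ALL against 10.16 and 8.75 (exact two-sided permutation test within lines, p = 0.0556, the smallest that 36 assignments allow). Of 12 T lineage markers 9 were measured and 7 lay above the filter level on every array. The myeloid marker MPO reached 7.03 and 7.94 in the scramble and shTOX-2 arrays of HPB-ALL and stayed between 4.47 and 5.45 elsewhere. It was 1 of 4 measured myeloid markers. CD14 and CSF1R lay below the filter level on every array, and LYZ ran from 3.58 to 5.25. The NK marker NKG7 (7.31 to 8.99) and the epithelial marker KRT18 (6.95 to 7.94) lay above the filter level on every array. The untransduced arrays stood apart from the rest in both lines, so the shTOX comparison over both lines is given against scramble alone as well.

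Of the 23 members, 17 had a mean at or above log2 5.18, the 40th percentile of all named genes and the level below which genes were not tested. SCARNA1, SCARNA3, SCARNA11, SCARNA14, SCARNA15 and SCARNA23 fell below it, 4 of them on all 8 arrays. A gene was called where limma's Benjamini-Hochberg adjusted p over all 8930 tested genes was under 0.05. Values after ± are standard errors unless marked SD.

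Transduced and untransduced cells were compared first. Against untransduced cells, shTOX cells had 5 of 17 tested members called lower, where 5.64% of all tested genes were called lower, and 1 called higher, where 6.18% were. The 5 lower members were SCARNA6, SCARNA5, SCARNA10, SCARNA27 and SCARNA2, and the higher one was SCARNA9L, an X-linked copy of SCARNA9. In all, 14 of 17 differences were negative, with a median of -0.27, while over all tested genes 55.0% were positive and the median was 0.04. T lineage markers moved with this comparison: 8 of 8 tested had negative differences (median -0.76), and CD7 at -0.89 and TRAT1 at -0.82 were called lower. CD1A, 1 of the 8, lay below the filter level on every HPB-ALL array, and its untransduced array was the lowest there (3.66). The log2 sum over the 9 measured markers was highest in the untransduced array of each line (13.39 for CCRF-CEM, 11.88 for HPB-ALL). The part of these markers in the result was not tested. Scramble cells, which share the transduction and the selection but not the TOX hairpins, had SCARNA10 and SCARNA5 called lower against untransduced cells and 0 members called higher, beside 0.482% and 0.582% of all tested genes, or 1.06% in either direction. The untransduced arrays serve in both comparisons, so these are not independent of each other. All 6 members called with shTOX were called when the 6 transduced arrays together were set against the 2 untransduced ones, a fit chosen after seeing the data.

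**Figure D1:**
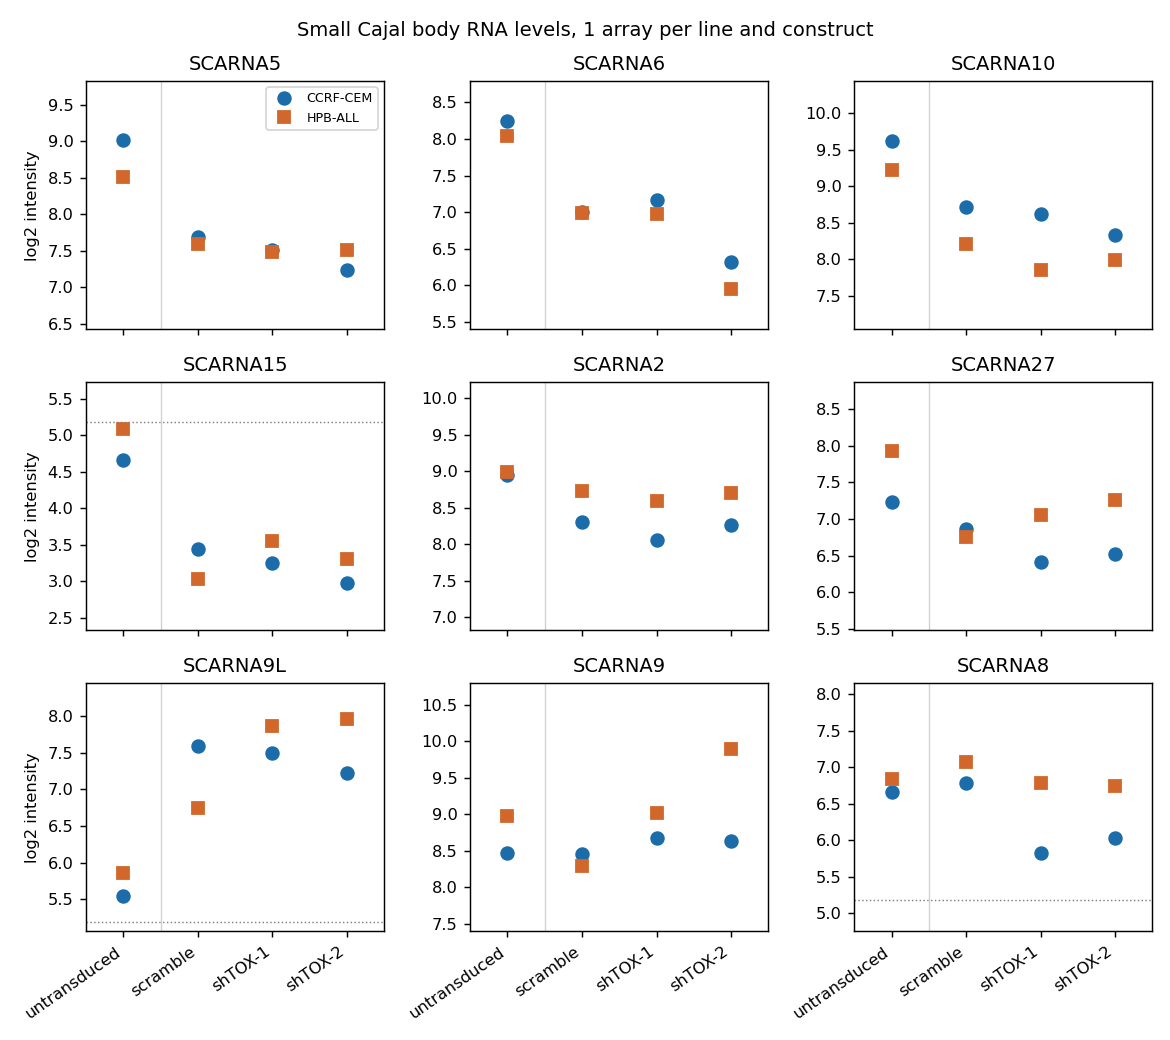
Log2 intensity (vertical axis, each panel spanning the same range of log2 units) of 9 small Cajal body RNAs in untransduced, scramble, shTOX-1 and shTOX-2 cells of CCRF-CEM (circles) and HPB-ALL (squares), with 1 array per point; the dotted line is the filter level of 5.18 where it falls in the panel. In both lines the untransduced array lies above all transduced arrays for SCARNA5, SCARNA6, SCARNA10, SCARNA15, SCARNA2 and SCARNA27 and below all of them for SCARNA9L.

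SCARNA5, also named U87, SCARNA6, also named U88, and SCARNA10, also named U85, are composite guides whose known targets include the U5 small nuclear RNA. SCARNA5 lay at 9.01 in untransduced CCRF-CEM cells, at 7.69 with scramble and at 7.52 and 7.24 with the hairpins shTOX-1 and shTOX-2. In HPB-ALL its values in the same order were 8.51, 7.59, 7.49 and 7.51. The untransduced array was the highest of its line in both, by more than the transduced arrays differed among themselves. The fitted difference was -1.32 ± 0.16 for shTOX (2.50-fold lower, adjusted p = 0.00414) and -1.12 ± 0.19 for scramble (2.17-fold lower, adjusted p = 0.0343).

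SCARNA10 was measured at 9.63 untransduced and 8.72, 8.62 and 8.34 with scramble, shTOX-1 and shTOX-2 in CCRF-CEM. The HPB-ALL values were 9.22, 8.21, 7.86 and 7.99. Again no transduced array reached the untransduced one of its line. The difference was -1.22 ± 0.13 with shTOX (2.33-fold lower, adjusted p = 0.00347, rank 14 by p among 8930 genes) and -0.96 ± 0.16 with scramble (1.94-fold lower, adjusted p = 0.0343).

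In CCRF-CEM, SCARNA6 stood at 8.24 untransduced, 6.999 with scramble, 7.17 with shTOX-1 and 6.32 under the other hairpin. In HPB-ALL it stood at 8.04, 6.98, 6.98 and 5.95. Untransduced cells were highest and shTOX-2 cells lowest in both lines, with scramble and shTOX-1 close together in between. Against untransduced cells the difference was -1.54 ± 0.29 with shTOX (adjusted p = 0.0139) and -1.15 ± 0.34 with scramble (adjusted p = 0.124). SCARNA12, or U89, the other composite member, did not share this pattern: its 8 values ran from 9.58 to 10.03, and it differed by -0.03 ± 0.16 (adjusted p = 0.925) between shTOX and untransduced cells.

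SCARNA2, a box C/D guide for U2 small nuclear RNA, had values of 8.95, 8.30, 8.05 and 8.26 in untransduced, scramble, shTOX-1 and shTOX-2 cells of CCRF-CEM, and of 8.99, 8.73, 8.58 and 8.70 in HPB-ALL. The untransduced array was highest in both lines, by less in HPB-ALL. Its shTOX difference was -0.57 ± 0.15 (1.49-fold lower, adjusted p = 0.0364) and its scramble difference -0.45, with an adjusted p of 0.210 in limma. SCARNA27 had values of 7.23, 6.86, 6.42 and 6.52 in CCRF-CEM and of 7.93, 6.75, 7.06 and 7.27 in HPB-ALL, in the same order. It differed by -0.77 ± 0.19 with shTOX (adjusted p = 0.0309) and by -0.78 with scramble (adjusted p = 0.109).

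SCARNA9L moved the other way. In CCRF-CEM it lay at 5.54 untransduced and at 7.59, 7.49 and 7.23 with scramble, shTOX-1 and shTOX-2, and in HPB-ALL at 5.86, 6.74, 7.86 and 7.97. The untransduced arrays were the lowest of both lines, at levels near the filter level, so background may bound the size of the difference there. It was 1.94 ± 0.27 with shTOX (3.83-fold higher, adjusted p = 0.00546) and 1.46 with scramble, where the adjusted p was 0.0590. SCARNA9, the U2 guide it resembles, did not follow it. Its untransduced values were 8.48 in CCRF-CEM and 8.98 in HPB-ALL. The difference from untransduced cells was 0.33 ± 0.26 with shTOX (adjusted p = 0.444) and -0.35 ± 0.30 with scramble (adjusted p = 0.604). The sequences of SCARNA9 and SCARNA9L are close, so how the signal divides between their probe sets is uncertain.

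**Figure D2:**
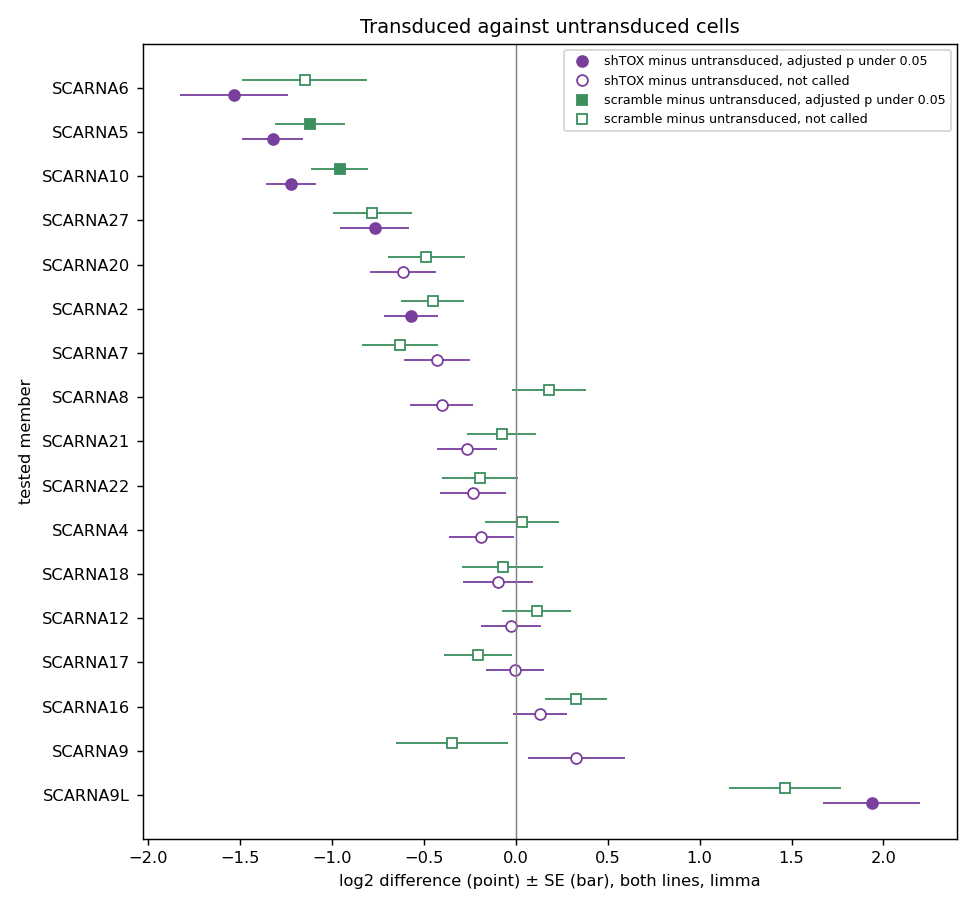
Log2 differences (horizontal axis, points with bars of 1 standard error) of the 17 tested small Cajal body RNAs between shTOX and untransduced cells (circles) and between scramble and untransduced cells (squares); filled symbols had an adjusted p under 0.05 in limma. SCARNA6, SCARNA5 and SCARNA10 lie farthest to the left and SCARNA9L farthest to the right in both comparisons, while SCARNA20, which was not called, lies beside the called SCARNA2.

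SCARNA15, an H/ACA guide for U2, was too dim to be tested but behaved like SCARNA5. It was measured at 4.66 in untransduced CCRF-CEM cells against 2.98 to 3.45 in the 3 transduced arrays, and at 5.08 in untransduced HPB-ALL cells against 3.03 to 3.55. Without a filter on low values it was called lower with shTOX (-1.60 ± 0.19, adjusted p = 0.00542) and with scramble (-1.64 ± 0.22, adjusted p = 0.0318). All its values lay below the filter level, so their size is bounded by background.

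Counted by array order, 6 of the 17 tested members had the untransduced array above all 3 transduced ones in both lines, namely SCARNA2, SCARNA5, SCARNA6, SCARNA10, SCARNA20 and SCARNA27, while 16.7% of all tested genes did. SCARNA3 and SCARNA15 did so among the 6 untested members. The reverse order in both lines was found for SCARNA9L alone among the 17, and for 20.5% of all tested genes. Within 1 line, the untransduced array was highest for 9 of 17 members in CCRF-CEM (30.5% of all tested genes) and 7 of 17 in HPB-ALL (27.9%), and lowest for 1 of 17 (36.9%) and 2 of 17 (33.6%). SCARNA20, an H/ACA guide for U12, lay at 6.94 in untransduced CCRF-CEM cells, at 6.54 in untransduced HPB-ALL cells and between 5.81 and 6.39 in the transduced ones, and its shTOX difference of -0.61 ± 0.18 missed the threshold (adjusted p = 0.0575). SCARNA7, or U90, a box C/D guide for U1, was highest untransduced in CCRF-CEM (10.66 against 9.71 to 9.89) but not in HPB-ALL (9.85 against 9.54 to 9.93). Relative to scramble, the median over the 17 tested members was 0.29 in the untransduced array of CCRF-CEM and 0.18 in that of HPB-ALL, where the medians over all tested genes were -0.02 in both.

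The calls rest on the 2 untransduced arrays, and 0 of the 6 were made in a fit without a term for the line. Without the CCRF-CEM untransduced array 1 of the 6 was still called (SCARNA10). Without that of HPB-ALL 3 of them were (SCARNA5, SCARNA9L and SCARNA10), with SCARNA20 called in addition. Leaving out an shTOX array kept 4 or 5 of the 6, with SCARNA2 lost each time and SCARNA27 lost in 3 of the 4 cases. In the scramble comparison, both SCARNA5 and SCARNA10 were lost without either scramble array, without the CCRF-CEM untransduced array, without any 1 of 3 shTOX arrays (CCRF-CEM shTOX-2, HPB-ALL shTOX-1 or HPB-ALL shTOX-2), or with the construct as a block; without the HPB-ALL untransduced array SCARNA10 was lost.

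The differences were set beside RNA length. The RefSeq lengths of the members ran from 125 bases for SCARNA22 to 421 for SCARNA17, and across the 17 tested members the correlation of length with the difference between shTOX and untransduced cells was r = 0.139 (Spearman's rho 0.213), and r = -0.057 for scramble against untransduced cells. For shTOX against scramble it was r = 0.472 (rho 0.347), and for HPB-ALL against CCRF-CEM r = 0.334 (rho 0.155). These are correlations across genes of the same arrays, given as a description.

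Genes for proteins that bind, assemble or house these RNAs had positive differences, most of which were not called. Of 23 tested genes for box C/D proteins, box H/ACA proteins, assembly factors and Cajal body proteins, 23 had positive differences between shTOX and untransduced cells (median 0.37), beside 55.0% of all tested genes with a median of 0.04, and 5 were called higher, beside 6.18%. These were GAR1, a core H/ACA protein, at 0.64 ± 0.16 (adjusted p = 0.0324), TCOF1, a nucleolar scaffold, at 0.64 ± 0.14 (adjusted p = 0.0218), NUFIP1, an assembly factor, at 0.59 ± 0.17 (adjusted p = 0.0488), and GEMIN4 and GEMIN5 of the SMN complex at 0.63 ± 0.14 and 0.61 ± 0.16 (adjusted p = 0.0244 and 0.0376). The other tested members of the lists, such as the methyltransferase FBL, the C/D protein NOP58 and coilin (COIL), the scaffold of the Cajal body, were not called. Not every listed gene was measured. Values were at hand for 3 of 4 box C/D proteins, 3 of 4 box H/ACA proteins, 10 of 13 assembly factors and 7 of 11 Cajal body and cap proteins. DKC1, the gene for dyskerin, was among those without a value.

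By list, 0 of 3 box C/D proteins, 1 of 3 box H/ACA proteins, 2 of 10 assembly factors and 2 of 7 Cajal body and cap proteins were called higher, to be read against the same 6.18%, and 0 were called lower, beside 5.64%. Against scramble 0 of the 23 were called, with a median of 0.06. Among 9 tested factors of intron debranching, trimming and decay, which free intronic guides from their host and degrade unprotected ones, 0 were called, DBR1 and XRN1 included. Of 3 tested genes of the U3 processome, MPHOSPH10 was called higher (0.46 ± 0.12, adjusted p = 0.0408).

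Of 4 tested structured RNAs of other kinds, 3 had negative differences between shTOX and untransduced cells (median -0.34) and 1 was called lower. Over all tested genes the median was 0.04, 55.0% of differences were positive and 5.64% of genes were called lower. RMRP, the RNA of a ribonuclease that acts in ribosomal RNA processing, was called lower in shTOX than in untransduced cells (-0.49 ± 0.13, adjusted p = 0.0410), with 11.36 and 11.53 in the untransduced arrays and 10.89 to 11.22 in the others. VTRNA1-3, a vault RNA, differed by -0.94 ± 0.31 (adjusted p = 0.0797), with 7.58 in the untransduced CCRF-CEM array against 5.75 to 6.54 and 4.80 in that of HPB-ALL, again the highest of its line. All its HPB-ALL values lay below the filter level, where background may bound them. RPPH1, the RNA of ribonuclease P, differed by -0.19 ± 0.12 (adjusted p = 0.346), its untransduced array being the highest in both lines. In HPB-ALL the gap was small (6.86 against 6.84 with shTOX-1). The untransduced array was highest in both lines for 16.7% of all tested genes and lowest in both for 20.5%. TERC, the telomerase RNA, which carries an H/ACA domain and passes through Cajal bodies, lay lowest in the untransduced array of both lines, at 8.72 in CCRF-CEM and 9.41 in HPB-ALL, and was not called. Of 8 tested long RNAs that host small nucleolar RNAs, GAS5 was called lower (-0.62 ± 0.15, adjusted p = 0.0309) and 0 were called higher, beside 5.64% and 6.18% of all tested genes.

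The comparison of shTOX with all controls called no member. It did not call the targeted gene TOX either (-0.96 ± 0.28, adjusted p = 0.292 in limma). Between shTOX and all control arrays, 0 of 17 members were called, as were 0.0% of all tested genes, although 6 members had an unadjusted p under 0.05, as did 1277 of the 8930 genes. SCARNA8, or U92, an H/ACA guide for U2, had the smallest p. It lay at 6.79 and 6.66 in the scramble and untransduced arrays of CCRF-CEM against 5.83 and 6.04 with shTOX-1 and shTOX-2, and at 7.08 and 6.84 against 6.78 and 6.74 in HPB-ALL. Both hairpins lay below both controls in each line, by less in HPB-ALL. The difference was -0.49 ± 0.15 (adjusted p = 0.295), and -0.58 ± 0.17 against scramble alone (adjusted p = 0.930, rank 59 of 8930 by p).

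SCARNA9 was the 1 member with both shTOX arrays above both controls in each line. Its shTOX-1 and shTOX-2 values were 8.68 and 8.64 in CCRF-CEM, against 8.46 with scramble and 8.48 untransduced. In HPB-ALL they were 9.02 and 9.90, against 8.30 and 8.98. The gap above the controls was small except in the HPB-ALL shTOX-2 array. The difference was 0.50 ± 0.23 against all controls (adjusted p = 0.348) and 0.68 ± 0.26 against scramble (adjusted p = 0.930). This order was shared by 6.36% of all tested genes, and the reverse order by 4.99%, among them 5 of 17 tested members: SCARNA2, SCARNA5, SCARNA8, SCARNA10 and SCARNA21, the last an H/ACA guide for U12. Within CCRF-CEM both shTOX arrays lay below both controls for 9 of 17 members, where 20.8% of all tested genes did, and above them for 1 of 17, where 22.3% did. Within HPB-ALL these counts were 6 of 17 and 3 of 17, beside 16.3% and 24.5%. SCARNA18 lay on opposite sides in the lines, an order shared by 5.16% of all tested genes.

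Against all controls the next smallest p-values among lower members belonged to SCARNA10 (-0.74), SCARNA6 (-0.96), SCARNA5 (-0.76) and SCARNA2 (-0.34), and among higher ones to SCARNA9L (1.20); these had adjusted p between 0.301 and 0.352. Only 3 members had positive differences, SCARNA9L, SCARNA9 and SCARNA17 (0.10), where 54.7% of all tested genes had. The values of SCARNA10, SCARNA6, SCARNA5, SCARNA2 and SCARNA9L rest on the untransduced arrays. Against scramble alone they were -0.26, -0.39, -0.20, -0.12 and 0.47 in that order. Without the HPB-ALL scramble array that of SCARNA9L against scramble was -0.19. For SCARNA9 and SCARNA17 the differences were larger against scramble alone, at 0.68 and 0.20. Against scramble 0 members and 0.0% of all tested genes were called. An unadjusted p under 0.05 was found for 2 members (SCARNA8 and SCARNA9) and for 459 of the 8930 genes. The member median was -0.13 beside 0.02 for all genes. The other members with the smallest p against scramble were SCARNA16 (-0.20) and SCARNA4 (-0.22) on the lower side and SCARNA17 (0.20), SCARNA7 (0.20) and SCARNA27 (0.01) on the higher.

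With construct as a block across the lines, SCARNA6 was called lower in shTOX than in all controls, and without the CCRF-CEM scramble array SCARNA9L was called higher; 0 members were called in the other fits of this comparison.

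Within the lines, shTOX was set against the scramble and untransduced arrays together and not against scramble alone. There 0 members were called in limma, as were 0.0% of all tested genes. An unadjusted p under 0.05 was found for 4 members and 821 of the 8930 genes in CCRF-CEM, and for 2 members and 677 genes in HPB-ALL. In CCRF-CEM 15 of 17 differences were negative, with a median of -0.39, where 54.3% of all tested genes had positive differences, with a median of 0.03. Among the negative ones were SCARNA8 at -0.79 ± 0.16 (adjusted p = 0.399 in limma, rank 18 by p), SCARNA4 at -0.48, SCARNA20 at -0.63, SCARNA5 at -0.97 and SCARNA18 at -0.39. The positive members were SCARNA9L at 0.80 and SCARNA9 at 0.19. In HPB-ALL 10 of 17 were negative, with a median of -0.11, beside 53.2% positive and a median of 0.02 over all tested genes. The differences with the smallest p there were SCARNA9L at 1.61 and SCARNA9 at 0.82 on the higher side and SCARNA10 at -0.79, SCARNA6 at -1.05 and SCARNA21 at -0.37 on the lower; SCARNA18 (0.26), SCARNA17 (0.23) and SCARNA16 (0.11) were positive as well, and SCARNA8 (-0.20) and SCARNA5 (-0.55) negative. The difference of these differences called 0 members in limma and 0.0% of genes. In it 410 of the 8930 genes had an unadjusted p under 0.05, and so had 3 members: SCARNA18 at 0.65, SCARNA8 at 0.60 and SCARNA4 at 0.56. For each the shTOX difference, not the level, was higher in HPB-ALL than in CCRF-CEM.

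The next smallest p-values of the interaction on the higher side belonged to SCARNA20 (0.51) and SCARNA9 (0.63). Of all tested genes 52.9% had positive values, and only 4 members had negative ones, SCARNA21 (-0.28), SCARNA6 (-0.17), SCARNA10 (-0.10) and SCARNA12 (-0.04). The last 3 were far from the threshold (adjusted p = 0.996 each in limma). Between the hairpins, 0 members and 0.0% of genes were called, and 0 members had an unadjusted p under 0.05, while 381 of the 8930 genes did. SCARNA6 was nearest, at -0.94 ± 0.42 for shTOX-2 minus shTOX-1 (adjusted p = 1.00 in limma); the 4 values behind it are given above, and shTOX-2 was the lower one in both lines. The others by smallest p were SCARNA9 (0.42), SCARNA4 (0.22), SCARNA16 (0.22), SCARNA22 (0.23) and SCARNA18 (0.23) on the higher side and SCARNA21 (-0.22), SCARNA12 (-0.11), SCARNA5 (-0.13) and SCARNA10 (-0.08) on the lower.

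The lines differed most in SCARNA17, higher in HPB-ALL, and SCARNA22, lower there. Between HPB-ALL and CCRF-CEM, 4 of 17 tested members were called higher and 1 lower in HPB-ALL, beside 14.9% and 12.4% of all tested genes; in either direction this was 5 of 17 members and 27.4% of genes, so the share of members was near the background. T lineage markers moved with the lines as well: 8 of 8 tested were called lower in HPB-ALL. CD1A, 1 of the 8, lay below the filter level on every HPB-ALL array (3.66 to 4.82) and was tested only through its CCRF-CEM values. Log2 sums over the 9 measured markers were 10.79 to 11.88 in HPB-ALL and 12.46 to 13.39 in CCRF-CEM. The part of these markers in the result was not tested. SCARNA17, or U91, a box C/D guide transcribed from its own promoter, lay at 8.15, 8.34, 8.17 and 8.43 in the scramble, shTOX-1, shTOX-2 and untransduced arrays of CCRF-CEM and at 10.10, 10.18, 10.61 and 10.22 in those of HPB-ALL. The lines did not come near to overlapping. The line means were 8.27 ± 0.14 and 10.28 ± 0.23 (SD, n = 4 each), a difference of 2.01 ± 0.14 (4.02-fold higher, adjusted p = 3.37e-06 in limma). The SNHG22 window that begins before its start is printed above; SNHG22 was not measured under its symbol.

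SCARNA22, or ACA11, an H/ACA RNA in an intron of the histone methyltransferase gene NSD2, went the other way. It ranged from 9.23 to 9.79 in CCRF-CEM and from 8.14 to 8.56 in HPB-ALL, again without overlap. Line means were 9.42 ± 0.25 and 8.39 ± 0.19 (SD, n = 4 each), with a difference of -1.03 ± 0.15 (2.04-fold lower in HPB-ALL, adjusted p = 0.000705 in limma). The enclosing gene NSD2 was called lower in HPB-ALL too, by -0.63 ± 0.14 (adjusted p = 0.00797), with 8.95 to 9.51 in CCRF-CEM and 8.43 to 8.74 in HPB-ALL.

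The other called members differed by less. SCARNA16, or ACA47, a guide for U1 whose 3′ end is printed above, had means of 7.94 ± 0.16 and 8.53 ± 0.21 (SD, n = 4 each) and differed by 0.59 ± 0.14 (adjusted p = 0.0119 in limma). SCARNA8 differed by 0.53 ± 0.15 (adjusted p = 0.0219) and SCARNA4, or ACA26, a guide for U2, by 0.44 ± 0.14 (adjusted p = 0.0435). The arrays of the lines did not overlap for SCARNA16, SCARNA17 and SCARNA4 on the higher side and SCARNA22 on the lower, where 14.2% and 12.8% of all tested genes did not; for SCARNA8 they did, since its CCRF-CEM control arrays reached 6.79 and its lowest HPB-ALL array was 6.74. SCARNA17, SCARNA16 and SCARNA22 were called in every fit that was run; SCARNA4 or SCARNA8 or both were lost in fits that left out an shTOX array of either line or changed the filter, and SCARNA4 under quantile normalization.

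**Figure D3:**
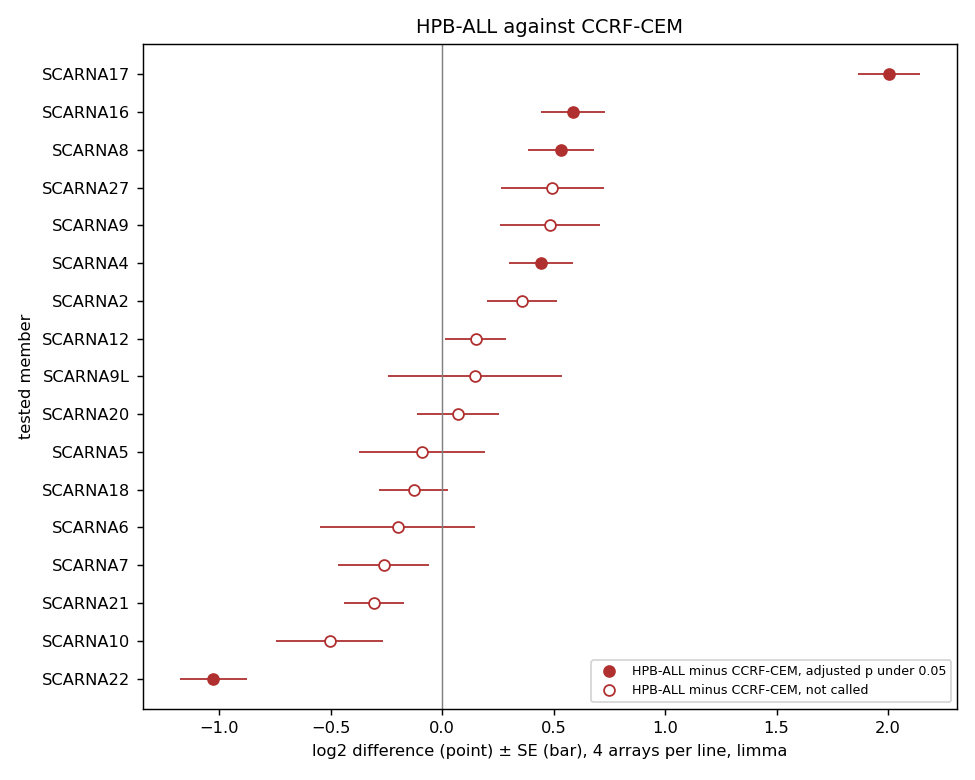
Log2 differences (horizontal axis, points with bars of 1 standard error) of the 17 tested small Cajal body RNAs between the 4 HPB-ALL and the 4 CCRF-CEM arrays; filled circles had an adjusted p under 0.05 in limma. SCARNA17 lies at 2.01 and SCARNA22 at -1.03, and the other 15 lie between -0.50 and 0.59.

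Among proteins of these particles, COIL was called lower in HPB-ALL (-0.60 ± 0.12, adjusted p = 0.00484) and so was SNUPN, the import adaptor for small nuclear RNA particles (-0.47 ± 0.14, adjusted p = 0.0343); 0 of the 23 were called higher. These are 2 of 23, beside 12.4% of all tested genes called lower. Of the 4 other structured RNAs, TERC was called higher in HPB-ALL (0.62 ± 0.14, adjusted p = 0.00877) and VTRNA1-3 lower (-1.91 ± 0.34, adjusted p = 0.00217). Over all tested genes 14.9% were called higher and 12.4% lower. VTRNA1-3 lay below the filter level on every HPB-ALL array (4.12 to 4.80) and was tested only through its CCRF-CEM values. Background may therefore bound the size of its difference. Of 8 long host RNAs, GAS5 (0.57), SNHG15 (0.44), SNHG17 (0.62) and SNHG5 (0.49) were called higher and SNHG8 (-0.97) lower, beside the same 14.9% and 12.4% of all tested genes.

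Small RNAs were set beside the genes that hold them. Strand was not known, so an enclosing gene may be on the other strand. For 10 tested members in 9 tested enclosing genes both values were at hand. SCARNA5 and SCARNA6 fell by over 1 log2 unit between untransduced and shTOX cells, whereas ATG16L1, which holds both, differed by -0.22 ± 0.19 (adjusted p = 0.485). Its levels were 7.92, 7.74, 7.62 and 7.26 in untransduced, scramble, shTOX-1 and shTOX-2 cells of CCRF-CEM and 7.94, 7.51, 8.04 and 7.94 in HPB-ALL, so the untransduced array was not apart in HPB-ALL. The converse was seen for KHDC4, which holds SCARNA4: KHDC4 was called lower with shTOX (-0.64 ± 0.12, adjusted p = 0.0141) and SCARNA4 was not (-0.19 ± 0.18, adjusted p = 0.514).

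Across the 10 pairs the differences from untransduced cells had a correlation of r = 0.416 (Spearman's rho 0.462) and 6 of 10 had the same sign. For the line comparison r was 0.557 (rho 0.237), with 6 of 10 of the same sign. Besides NSD2, CHD3 was called between the lines, higher in HPB-ALL by 0.56 ± 0.17 (adjusted p = 0.0335), with SCARNA21, which it holds, at -0.31 ± 0.13 (adjusted p = 0.120). These correlations are across genes that share arrays, with 1 enclosing gene counted for 2 members, and are given as a description; the difference between a member and its enclosing gene was not tested.

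**Figure D4:**
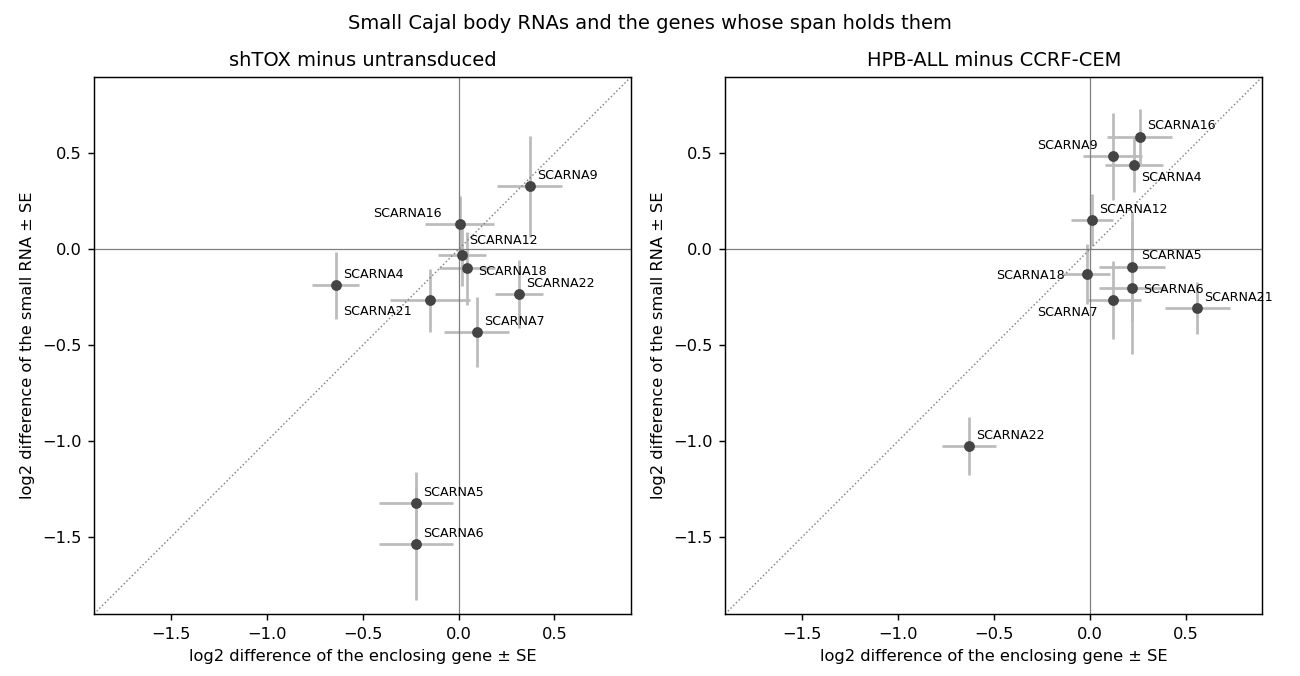
Log2 difference of a small Cajal body RNA (vertical axis) against that of the gene whose span holds it (horizontal axis), with bars of 1 standard error, for 10 pairs, between shTOX and untransduced cells (left) and between HPB-ALL and CCRF-CEM (right); the dotted line marks equal differences. SCARNA5 and SCARNA6 lie far below the dotted line on the left, and SCARNA22 lies at the lower left of the right panel with its enclosing gene NSD2.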

How the data were processed

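Total RNA was taken with a column kit and labelled by the GeneChip WT Plus protocol, per the labels' protocols; such columns recover short RNAs less well than long ones, an effect that was not tested. The authors deposited a log2 value for each of 53617 probe sets on each array (the scale was read from the range, 1.81 to 13.9). How these were background-corrected, normalized and summarized, and with which software, is not given in the sources used here. Of the probe sets 16098 carried 1 gene symbol, 0 several and 37519 none; the Entrez identifiers of all 16098 matched RefSeq with 0 differing symbols. Probe sets without a symbol, which may hold other small nucleolar RNAs, were not used here.

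For each gene the probe set with the highest mean was taken. Linear models (limma 3.58.1, R 4.3.3, with eBayes untrended) were fitted to the 8 arrays, and checked on simulated data. Line and shTOX were terms for shTOX against controls and for the lines; line with scramble, shTOX and untransduced means for those 3 comparisons; a mean per line and state for the within-line values; and line with shTOX-1, shTOX-2 and control means for the hairpins. Named members were those called, or else the 5 of smallest p in each direction, with the 4 of highest mean and the 2 of largest SD. Members, lists and tests were chosen with earlier results of these data known; the list of other structured RNAs was added after the design had been set. Lists fixed for SNORA and SNORD genes found no member, and host genes were matched without strand, which the gene table lacks. Alternatives changed the filter, normalization, variance model, probe set rule, terms of the fit and arrays used.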

Additional observations from a re-analysis of the deposited data

Results flagged for a closer look

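Within each line the 4 arrays of each member were searched for 1 array far from the others, in 46 groups; chance marks about 1 in 20. One was marked: SCARNA5 at 8.51 in the untransduced HPB-ALL array, with a gap to the nearest array of 0.897 of the whole range, above the 95% critical value for 4 arrays. For SCARNA18 both shTOX arrays lay below both controls in CCRF-CEM (6.14 and 6.47 against 6.67 and 6.70) and above both in HPB-ALL (6.44 and 6.56 against 6.15 and 6.32), an order of opposite sides found for 5.16% of all tested genes. The interaction was 0.65 ± 0.24 and missed the threshold (adjusted p = 0.973 in limma).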

How the results depend on the processing

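The 6 members called between shTOX and untransduced cells were called again with no filter, a filter at the 60th percentile, quantile normalization, a trended and robust variance, and the construct as a replicate block. Without a line term 0 members and 1 gene were called there, and 0 members and 0 genes between scramble and untransduced cells. The latter comparison called 162 genes with the 60th percentile filter (member median -0.35) and 220 with the trended variance. In both of these fits SCARNA9L was called higher in addition, beside 105 of 5954 and 137 of 8930 genes called higher. Under the replicate block, scramble against untransduced called 0 members and 9 genes, shTOX against controls 1 member and 16 genes, and HPB-ALL against CCRF-CEM 8 members. The hairpin numbers pair arrays only by construct: across genes the shTOX-2 minus shTOX-1 difference of one line had r = 0.225 with that of the other. Quantile normalization turned SCARNA10 between the hairpins to 0.0062.

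Leaving out 1 array at a time, members called ranged from 1 to 6, genes from 25 to 1080 and the member median from -0.51 to -0.17 for shTOX against untransduced; from 0 to 2, 3 to 90 and -0.36 to -0.17 for scramble against untransduced; from 3 to 7, 1817 to 2471 and 0.012 to 0.22 for the lines; and from 0 to 1 and 0 to 4 for shTOX against controls (median -0.25 to -0.12). Genes called ranged from 0 to 65 within CCRF-CEM (median -0.47 to -0.24), 0 to 1 within HPB-ALL (median -0.14 to -0.017) and 0 to 8 for the interaction (median 0.12 to 0.54), and the hairpin median from -0.031 to 0.32. Signs turned, without 1 array, for SCARNA10 (-0.61 to 0.40), SCARNA12 (-0.26 to 0.18) and SCARNA6 (-0.79 to 0.45) in the interaction, SCARNA9L within CCRF-CEM (-0.23 to 1.82), SCARNA16 within HPB-ALL (-0.073 to 0.30), SCARNA17 against controls (-0.015 to 0.18), and SCARNA27 (-0.39 to 0.41) and SCARNA9L (-0.19 to 1.13) against scramble. Between hairpins they turned for SCARNA10 (-0.25 to 0.10), SCARNA12 (-0.34 to 0.11), SCARNA18 (-0.056 to 0.51), SCARNA21 (-0.48 to 0.044), SCARNA4 (-0.024 to 0.47), SCARNA5 (-0.37 to 0.11) and SCARNA9 (-0.10 to 0.94). The causes were not tested. Taking the mean of probe sets kept the members called, but each member has 1 probe set, so its values could not change. Numbered copies could not be left out since the rule found none. With 1 array per line and construct, the number of arrays limits the precision.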
